A study of Mus musculus with 8 samples.

Results

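The eIF4A paralogs are the 3 mouse genes Eif4a1 (ENSMUSG00000059796), Eif4a2 (ENSMUSG00000022884) and Eif4a3 (ENSMUSG00000025580), which encode closely related ATP-dependent RNA helicases. They were taken by symbol from a count table of 52550 genes, and all 3 were found, in all 8 libraries. Some libraries hold what anti-Flag antibody pulled down (RIP, RNA immunoprecipitation) and others its input, taken without antibody. All came from mouse embryonic stem cells (ESCs) with the genotype Eif4a2 KO, in the Rex1-GFPd2 reporter background with a Cas9 transgene, grown in ES-DMEM with 1.5 µM CHIR99021 and 0.5 µM PD0325901 (the inhibitors called 2i) and 10 ng/ml LIF. The KO cells carried either an empty vector (EV), with no Flag-tagged protein, or Eif4a2flag, the full-length coding sequence with a 3xFlag tag driven by the CAG promoter.

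There were 4 groups of 2 libraries: input EV, input Flag-eIF4A2, RIP EV and RIP Flag-eIF4A2. Immunoprecipitation ran for 3 h with 5 µg of anti-Flag antibody. According to a legend of the study, the 2 Flag-eIF4A2 replicates were 2 clones, while the sources do not say whether the EV replicates were separate clones. The p-values therefore reflect only how far these libraries vary, and for EV this variation may be technical. In one label field RIP Flag-eIF4A2 replicate 2 is called "RIP Eif4a3", while its title, source and genotype name Eif4a2. It was kept in the group of its title. Without it no paralog passed the test in any comparison, and the log2 fold change of Eif4a3 against RIP EV turned from -0.07 to 0.05.

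eIF4A1 and eIF4A2 are the helicase subunit of eIF4F, the complex that binds the cap of an mRNA and unwinds its leader so that the small ribosomal subunit can load. eIF4E binds the cap, eIF4G is the scaffold that holds eIF4E and eIF4A together, eIF4B and eIF4H stimulate the helicase, and PDCD4 sequesters it. eIF4A3 works elsewhere: it is the RNA-clamping core of the exon junction complex, which marks spliced junctions and feeds nonsense-mediated decay (NMD), the pathway that degrades mRNAs with a premature stop. eIF4A2 has also been linked to the CCR4-NOT deadenylase complex. The comparisons below ask whether the mRNAs of the paralogs themselves were recovered with Flag-eIF4A2, and whether their levels differed between the cell lines.

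The paralogs share the DEAD motif that names their helicase family. Its codons are shown in capitals within 30 coding bases of the GENCODE M21 transcripts Eif4a1-213, Eif4a2-201 and Eif4a3-201. They show how far the genes differ at this motif, while reads of these libraries come from near the 3′ end of an RNA.
Eif4a1: ttcgtactgGATGAAGCAGATgaaatgtta
Eif4a2: ttcgttttgGACGAAGCAGATgaaatgttg
Eif4a3: ctggttttgGATGAGGCTGATgaaatgttg
Across the coding sequences, 77.6% of aligned bases were identical between Eif4a1 and Eif4a2, 65.7% between Eif4a1 and Eif4a3 and 65.4% between Eif4a2 and Eif4a3. The longest run of identical bases between any 2 of the 3 transcripts was 23 bases, so that no window of 50 bases was shared (0 of 1725 windows of Eif4a1, 0 of 2159 of Eif4a2 and 0 of 1460 of Eif4a3). A stretch of 50 bases from one paralog therefore matched no other paralog exactly.

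All the cells are labelled Eif4a2 KO, and the structure of Eif4a2 sets what its tags can show. Eif4a2 lies on the plus strand at chr16:23107444-23114136 (GRCm38), Eif4a1 on the minus strand at chr11:69666936-69672423 and Eif4a3 on the minus strand at chr11:119288363-119300089. The guide pair listed for deletion of all isoforms of Eif4a2 matched the genome once each. They are printed here on the plus strand with the PAM, which lies on the minus strand, in capitals.
Upstream guide, chr16:23110092-23110114: CCCtcacattgttgttggtactc
Downstream guide, chr16:23112518-23112540: CCCaaggcattttgtatgttagc
Cuts 3 bases from each PAM would fall in exon 5 and in intron 10 of the 11-exon transcript Eif4a2-201. The interval between them, chr16:23110098-23112523, is 2426 bases long and holds 618 of the 1221 coding bases. These include the DEAD codons (codons 183 to 186, in exon 6). It also holds the exon with a premature stop, chr16:23112351-23112457, part of a transcript annotated as an NMD substrate and of transcripts annotated as coding. The last exon, chr16:23113167-23113947, with the stop codon and the 3′ end, begins 644 bases beyond the interval. Junctions of the clones were not read here.

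**Figure D1:**
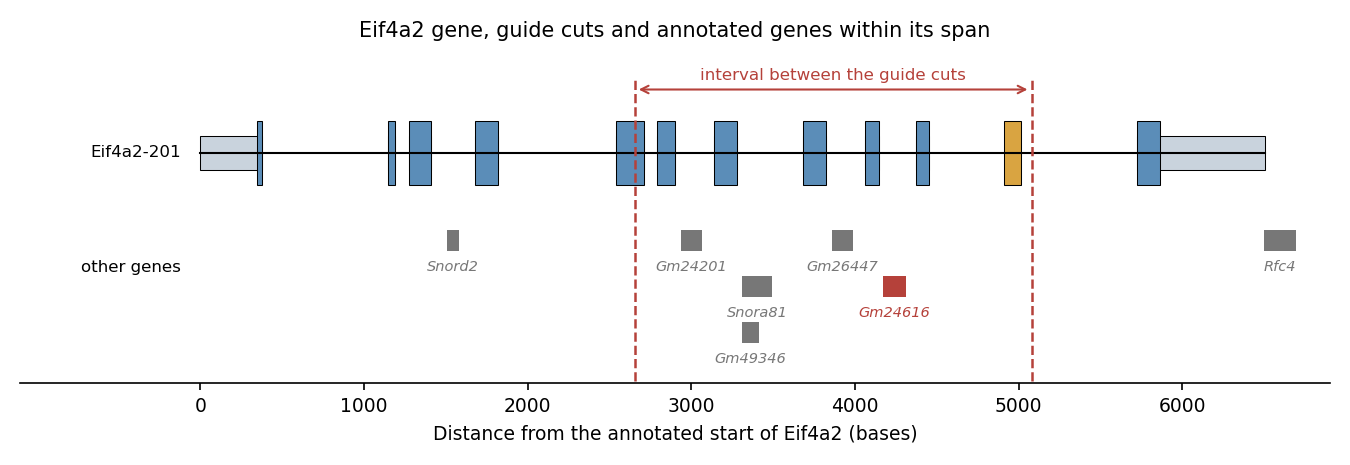
Map of Eif4a2, with distance in bases from its annotated start on the x axis. Blue boxes are coding parts of exons of Eif4a2-201, pale boxes its untranslated parts, the yellow box the exon with a premature stop, dashed lines the guide cuts and lower boxes other annotated genes. The last exon lies to the right of the interval, and Gm24616, in red, lies inside it.

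QuantSeq libraries carry a tag near the 3′ end of a polyadenylated RNA, so 1 transcript gives about 1 tag whatever its length, and levels of the paralogs are compared here in tags without division by length. Since the last exon of Eif4a2 lies outside the interval, a tag from it can come from an allele with the deletion, and the Eif4a2 count does not check the label Eif4a2 KO. The re-expressed sequence was amplified from the start codon to the stop codon, whose codons are in capitals in the gene-matching parts of the cloning primers.
Forward primer, chr16:23107792-23107808, plus strand: ATGtctggtggctccgc
Reverse primer, chr16:23113287-23113311, minus strand: TTAaattaggtcagccacattcatg
The 3′ end of the transgene mRNA therefore belongs to the vector, and tags there are not counted under Eif4a2. Counts per gene do not separate any transgene tags within the coding sequence from tags of the endogenous locus. The Eif4a2 count is therefore no measure of re-expression.

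The libraries held 2044853 to 11206420 reads on genes, with 2044853 and 3345151 in RIP EV against 11206420 and 9976801 in RIP Flag-eIF4A2. Reads outside annotated exons made up 45.8% and 29.7% of reads in RIP EV, against 3.30% and 4.13% in RIP Flag-eIF4A2. Of the 10754 transcripts tested, 1961 (18.2%) had 0 counts in both RIP EV libraries. The part of this difference in depth in the comparisons with RIP EV was not tested. The 7 markers of ESCs summed to 1779 to 2391 CPM (counts of a gene scaled to the same total of gene reads in each library) in the inputs, 957 and 1505 in RIP EV, and 2229 and 2589 in RIP Flag-eIF4A2. The 4 fibroblast markers summed to at most 6.87 CPM and the 3 primitive endoderm markers to at most 1.34 CPM in every library.

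Tags of Eif4a2 were present in all 8 libraries, at a similar level in the KO cells with and without Flag-eIF4A2. Here and below, these tags need not come from an intact mRNA, since the last exon lies outside the interval. Input EV held 53.8 and 94.2 CPM (391 and 302 counts) and input Flag-eIF4A2 86.8 and 69.1 CPM (401 and 430 counts). The means were 74.0 ± 28.6 and 77.9 ± 12.5 CPM (SD, n = 2 each), and the Flag-eIF4A2 values lay within the range of input EV. RIP EV held 56.7 and 126 CPM (116 and 421 counts) and RIP Flag-eIF4A2 76.7 and 47.4 CPM (860 and 473 counts). The RIP EV replicates spanned most of the range of the series. The lowest Eif4a2 level of all 8 was in RIP Flag-eIF4A2 replicate 2.

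Eif4a1 was the most abundant of the paralogs on average. Input EV held 287 and 340 CPM and input Flag-eIF4A2 312 and 366 CPM, with means of 313 ± 37.4 and 339 ± 38.3 CPM (SD, n = 2 each). RIP EV held 214 and 341 CPM, and RIP Flag-eIF4A2 660 and 335 CPM. The value of 660 CPM (7399 counts) in RIP Flag-eIF4A2 replicate 1 was the highest of any paralog in any library. The other replicate of that group lay below RIP EV replicate 2, so the 2 groups overlapped.

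Eif4a3 had levels close to those of Eif4a1 in the inputs. Input EV held 278 and 287 CPM and input Flag-eIF4A2 219 and 384 CPM. RIP EV held 282 and 187 CPM, and RIP Flag-eIF4A2 277 and 269 CPM. The RIP Flag-eIF4A2 replicates, with a mean of 273 ± 5.98 CPM (SD, n = 2), lay within the range of RIP EV. RIP Flag-eIF4A2 replicate 2, the library that one label field calls RIP Eif4a3, held 269 CPM of Eif4a3, close to replicate 1.

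**Figure D2:**
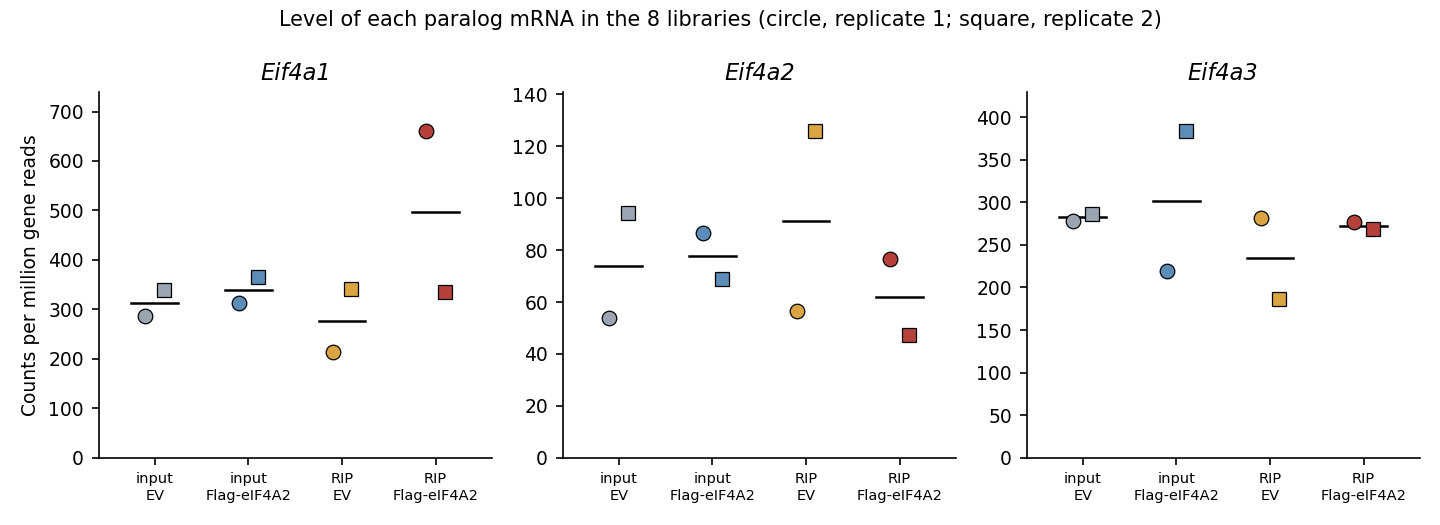
Level of each paralog mRNA, in CPM, in the 4 groups. Circles are replicate 1, squares replicate 2 and lines group means. Eif4a2 stays between 47.4 and 126 CPM, and the highest point of all is Eif4a1 in RIP Flag-eIF4A2 replicate 1, at 660 CPM.

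Within a library the paralogs can be set against each other without any scaling between libraries. Eif4a2 was the least abundant in all 8, with 7.28% (RIP Flag-eIF4A2 replicate 2, 95% Wilson interval 6.67% to 7.94%) to 19.3% (RIP EV replicate 2, 17.7% to 21%) of the tags of the 3 genes. Eif4a1 took 38.7% (RIP EV replicate 1, 35.9% to 41.5%) to 65.1% (RIP Flag-eIF4A2 replicate 1, 64.2% to 66.0%). Eif4a3 took 27.3% (RIP Flag-eIF4A2 replicate 1, 26.5% to 28.1%) to 51.1% (RIP EV replicate 1, 48.1% to 54.0%). Eif4a1 was above Eif4a3 in 6 of 8 libraries and below it in input Flag-eIF4A2 replicate 2 and RIP EV replicate 1, so the order of these neighbours was not separated by the spread. The intervals cover counting error only and leave out the spread between replicates. They treat each read as independent, although reads carry no molecular identifiers.

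In these cells labelled Eif4a2 KO, tags of Eif4a2 can come from an allele with the deletion. The ratio of Eif4a2 to Eif4a1 tags was lower in both RIP Flag-eIF4A2 libraries than in any of the other 6. It was 0.187 and 0.277 in input EV, 0.278 and 0.189 in input Flag-eIF4A2, 0.265 and 0.369 in RIP EV, and 0.116 and 0.141 in RIP Flag-eIF4A2. The counting intervals of RIP Flag-eIF4A2, 0.108 to 0.125 and 0.128 to 0.156, lay below the lowest interval of the rest, 0.168 to 0.209. These intervals treat each read as independent and leave out the spread between replicates. On the log2 scale the group means differed by -1.29 between RIP Flag-eIF4A2 and RIP EV, and by -0.84 between RIP Flag-eIF4A2 and its input, with pooled SDs of 0.28 and 0.31 (n = 2 each). The two-sided exact permutation p was 0.33 in both, the smallest that 2 against 2 libraries can give, and 0.889 after Benjamini-Hochberg adjustment over the 12 ratio comparisons. The design therefore cannot carry this difference past a threshold of 0.05. RIP EV differed from its input by 0.46 and the inputs by 0.01, both with overlapping groups. How often the ratio of other pairs of transcripts separates RIP Flag-eIF4A2 from these groups was not computed. For single transcripts, CPM ranges did not overlap for 63.9% of all transcripts against RIP EV and for 64.4% against input.

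With any 1 library left out, the difference from RIP EV ran from -1.53 to -1.05 and that from input from -1.12 to -0.56. Since the groups did not overlap to begin with, leaving out a library could neither make them overlap nor turn the sign. RIP Flag-eIF4A2 replicate 1 combined the highest Eif4a1 with an Eif4a2 level inside the input range, and replicate 2 combined an input-like Eif4a1 with the lowest Eif4a2. The ratios of Eif4a3 to Eif4a1 and of Eif4a2 to Eif4a3 overlapped between the groups in all 8 comparisons.

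**Figure D3:**
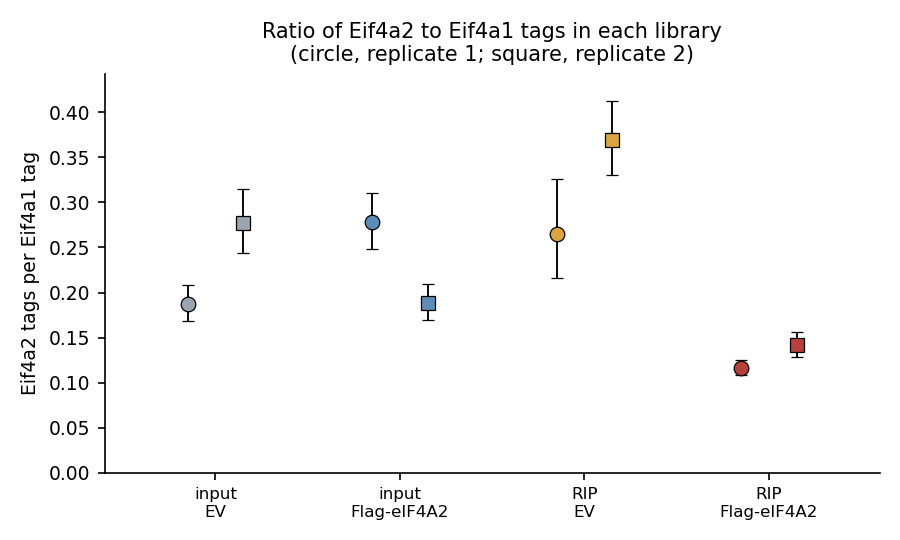
Tags of Eif4a2 per tag of Eif4a1 in each library. Circles are replicate 1, squares replicate 2, and bars are 95% intervals for counting error. The RIP Flag-eIF4A2 libraries, at 0.116 and 0.141, lie below the other 6, which start at 0.187.

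Across all transcripts, none of the 3 paralogs passed the test in any of 5 comparisons. The test was edgeR's quasi-likelihood test on the counts of all 8 libraries with TMM scaling, with Benjamini-Hochberg adjustment over 10754 transcripts and a threshold of 0.05. The CPM ranges of the 2 groups overlapped for each paralog in each of the 4 pairwise comparisons (12 of 12).

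In RIP Flag-eIF4A2 against RIP EV, 0 of 3 paralogs passed, while 24.8% of all transcripts were called higher and 5.46% lower, and 63.9% had CPM ranges that did not overlap. Eif4a1 had a log2 fold change of 0.56 ± 0.38 (SE, adjusted p = 0.342 by edgeR, 95% interval -0.35 to 1.48). Eif4a2 had -0.83 ± 0.54 (adjusted p = 0.317 by edgeR, -2.12 to 0.46), and Eif4a3 -0.07 ± 0.36 (adjusted p = 0.922 by edgeR, -0.93 to 0.80). The median of all transcripts was 0.64, so Eif4a1 sat near the middle (48.4% of transcripts had a lower value), Eif4a3 below it (35.4%) and Eif4a2 further below (21.1%). Among the 3577 transcripts with a mean CPM of at least 50, a limit chosen after seeing the data, the median was 0.12 and the shares with a lower value were 60.8%, 42.1% and 23.0% for Eif4a1, Eif4a3 and Eif4a2. Relative to either median, Eif4a2 was the lowest of the 3. The sign of Eif4a3 was not stable: it was 0.22 with no scaling factor, when the median of all transcripts was 0.91, and 0.13 with no filter on low counts, when it was 1.59.

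Whether Eif4a1 or Eif4a2 passed against RIP EV depended on a single RIP EV library, in fits that called more of all transcripts too. Without RIP EV replicate 1, which had the lowest depth, Eif4a2 had a log2 fold change of -1.27, beside a median of all transcripts of 0.67. Without RIP EV replicate 2, Eif4a1 had 1.02, while the median of all transcripts moved to 3.07, above the value of Eif4a1. Each time the remaining RIP EV library was assumed to vary like the other groups.

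**Figure D4:**
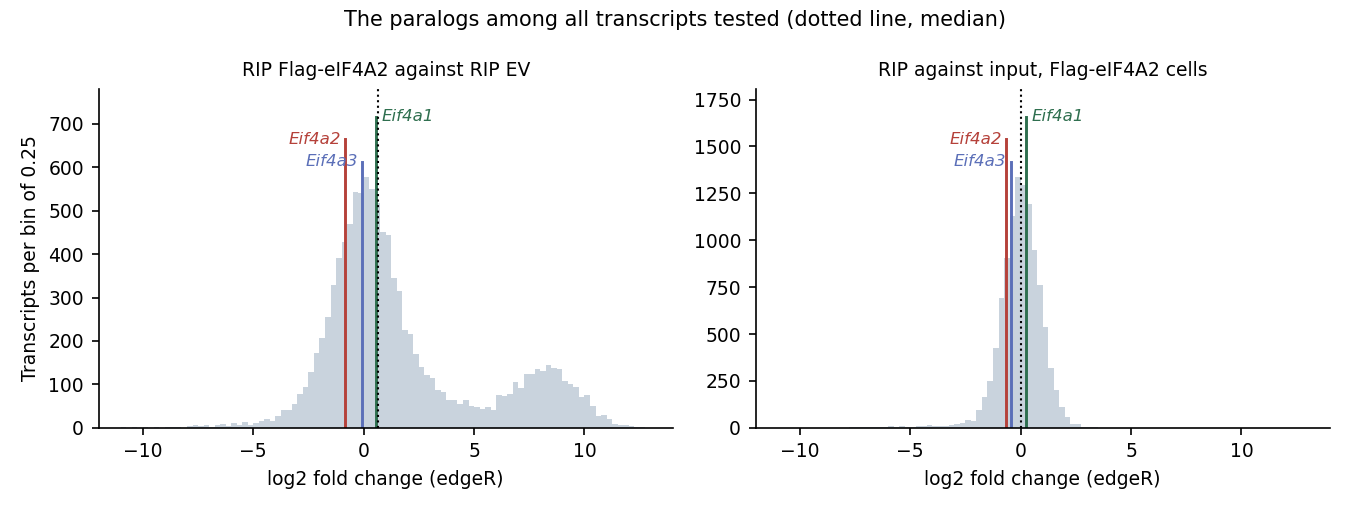
Log2 fold changes (x axis, edgeR) of the 10754 transcripts tested, as counts per bin of 0.25 (y axis), against RIP EV (left) and against input in Flag-eIF4A2 cells (right). Coloured lines mark the paralogs and dotted lines the medians, 0.64 and 0.02. The left panel has a second peak at high values, and all 3 paralogs lie in the main peak of both.

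In RIP against input of the Flag-eIF4A2 cells, 0 of 3 paralogs passed, and of all transcripts 0% were called higher and 0.0558% lower (6 transcripts), while 64.4% had CPM ranges without overlap. Eif4a1 had a log2 fold change of 0.24 ± 0.38, Eif4a2 -0.64 ± 0.54 and Eif4a3 -0.44 ± 0.36 (SE, adjusted p = 1.00, 0.923 and 0.916 by edgeR), against a median of 0.02. Among all transcripts, 60.8%, 21.4% and 28.5% had a lower value than Eif4a1, Eif4a2 and Eif4a3. The call rate here rests on the spread that the 4 groups share: 963 transcripts had an unadjusted p under 0.05 in this fit, while edgeR on the 4 libraries of the comparison called 908 higher and 910 lower, DESeq2 on them 997 and 1098, and limma voom with a weight per group 957 and 1038. None of these called a paralog. Without RIP Flag-eIF4A2 replicate 1 the value of Eif4a1 turned to -0.29.

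In RIP against input of the EV cells, 0 of 3 paralogs passed, with 4.5% of transcripts called higher and 26.3% lower and 59.5% with CPM ranges without overlap. Over all transcripts, edgeR on the 4 libraries of the comparison and limma voom called 0 (3175 and 2114 had an unadjusted p under 0.05), and DESeq2 on the 4 libraries called 305 higher and 487 lower. The log2 fold changes were -0.19 ± 0.38 for Eif4a1, 0.30 ± 0.53 for Eif4a2 and -0.27 ± 0.36 for Eif4a3 (SE, adjusted p = 0.775, 0.740 and 0.647 by edgeR). The median of all transcripts was -0.64, so all 3 lay above it. Eif4a2 had the highest position, with 68.6% of transcripts below it. Leaving out RIP EV replicate 2 turned Eif4a2 to -0.41, and leaving out RIP EV replicate 1 turned Eif4a1 to 0.08.

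Between the inputs, 0 of 3 paralogs passed, and 0% of transcripts were called higher and 0% lower, although 37.1% had CPM ranges without overlap. Before adjustment 134 transcripts were under 0.05 in this edgeR fit. With DESeq2 over the 8 libraries 11 were higher and 2 lower, and with limma voom 0 passed. The log2 fold changes were 0.13 ± 0.38, 0.11 ± 0.53 and 0.10 ± 0.36 for Eif4a1, Eif4a2 and Eif4a3 (SE, adjusted p = 1.00 for each by edgeR). The 95% intervals reached from -0.78 to 1.04, from -1.17 to 1.39 and from -0.76 to 0.96, so differences within these intervals were not detectable at this depth and number of libraries. In bulk RNA, fewer cells and less RNA per cell cannot be told apart.

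The change from input to RIP was then compared between Flag-eIF4A2 and EV cells, as Flag-eIF4A2 minus EV. This difference was 0.43 ± 0.54 for Eif4a1, -0.94 ± 0.76 for Eif4a2 and -0.17 ± 0.51 for Eif4a3 (SE, adjusted p = 0.717, 0.516 and 0.908 by edgeR). Of all transcripts, 19.2% had a higher and 2.1% a lower difference, with a median of 0.64. Only 18.7% of transcripts had a lower difference than Eif4a2. Without RIP EV replicate 1 the difference for Eif4a2 was -1.39, beside a median of all transcripts of 0.68. That fit left 1 RIP EV library and called more of all transcripts too.

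**Figure D5:**
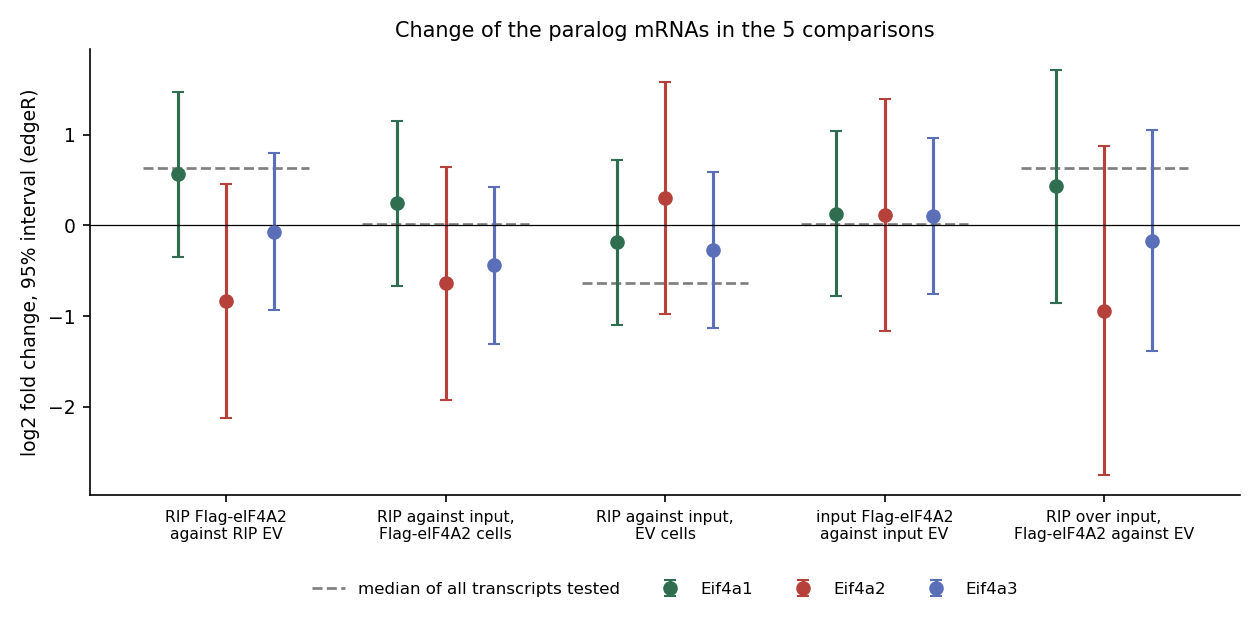
Log2 fold change of each paralog mRNA in 5 comparisons (y axis), with 95% intervals from edgeR. Dashed lines are medians of all transcripts tested. Every interval includes 0, and Eif4a2 is the lowest of the 3 in both comparisons of RIP Flag-eIF4A2 and in the difference of RIP over input changes.

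Genes that share the locus of Eif4a2 gave a measurement inside the interval. Gm24616, a snoRNA gene (chr16:23111617-23111755, plus strand) in intron 9, lies wholly within it, with 139 of 139 bases. It had 227 and 166 counts in input EV, 108 and 257 in input Flag-eIF4A2, 0 and 154 in RIP EV, and 23 and 11 in RIP Flag-eIF4A2. In the inputs this was 23.4 to 51.8 CPM, of the order of Eif4a2 itself, and in RIP EV replicate 1 a count of 0 allows up to 1.47 CPM. Thus tags were counted within the interval in cells labelled KO. Whether they came from this locus was not tested: the genome holds 4 other similar sequences, 1 of them over the full length, with at most 93.7% identity.

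RIP Flag-eIF4A2 held the lowest nonzero Gm24616 levels, 2.05 and 1.10 CPM. The log2 fold change was -4.64 ± 1.95 against input (adjusted p = 0.562 by edgeR) and -4.11 ± 1.91 against RIP EV (adjusted p = 0.167 by edgeR), and neither passed. The other 5 small RNA genes in the span of Eif4a2 (Snord2, Gm24201, Gm49346, Snora81 and Gm26447) lie wholly under exons of annotated Eif4a2 transcripts and had 0 counts in all 8 libraries, as had the 3 snoRNA genes within Eif4a1 (Gm24029, Gm25835 and Gm22988). Of Gm24616, 10 bases lie under such exons. A read that overlaps more than 1 gene is set aside by the counting tool, and such reads made up at most 0.759% of a library.

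Rfc4, a clamp loader subunit of DNA replication, overlaps the 3′ end of Eif4a2 by 194 bases on the opposite strand. It had 13.2 and 7.49 CPM in input EV, 12.6 and 20.7 in input Flag-eIF4A2, 32.8 and 9.27 in RIP EV, and 31.0 and 32.2 in RIP Flag-eIF4A2. Rfc4 was higher in both RIP Flag-eIF4A2 libraries than in either input. Against input of the same cells, 64.4% of all transcripts had CPM ranges without overlap. The log2 fold change of Rfc4 against input, 0.63 ± 0.83, did not pass (adjusted p = 1.00 by edgeR). No source used here gives the strand setting of the counting. If strand was ignored, tags of the overlap would fit both genes and be set aside, which would lower both counts. If strand was used, they would go to the gene on their strand.

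Copies of the paralogs touched Eif4a3 most. Gm8994, which RefSeq names Eif4a3l1, shares 96.2% of coding bases with Eif4a3 and 12.1% of the 50-base windows of its transcript. It had 681 counts in RIP Flag-eIF4A2 replicate 1, 47 in replicate 2, 82 in input Flag-eIF4A2 replicate 1, 8 in input EV replicate 2 and 0 in the other 4 libraries. Its level was thus uneven between replicates of one group. Adding its counts and those of Gm5580 (Eif4a3l2, at most 4 counts in a library) raised the Eif4a3 share of RIP Flag-eIF4A2 replicate 1 from 27.3% to 31.4% (95% Wilson interval 30.6% to 32.3%). The pseudogene Eif4a-ps4 shares 64.9% of the 50-base windows of Eif4a1 but had 2 counts, in RIP Flag-eIF4A2 replicate 1, and 0 elsewhere. Eif4a2 shared no 50-base window with any of these copies. Reads that fit 2 places equally well are not counted, and they may lower the counts of Eif4a1 and Eif4a3.

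The paralogs did not follow each other across the 8 libraries. On log2(TMM-scaled CPM + 1), Pearson's r was 0.20 between Eif4a1 and Eif4a2, -0.16 between Eif4a1 and Eif4a3 and -0.31 between Eif4a2 and Eif4a3. The transcripts most like Eif4a1 were Hmcn2 (r = 0.92), Skp1a (0.87) and Wdr5 (0.87). Those most like Eif4a2 were Hmga2 (0.92), Snora20 (0.92) and Tomm20 (0.91), and those most like Eif4a3 were Sptlc1 (0.95), Blcap (0.93) and Mvd (0.92). These are the 3 highest values for each paralog among 10754 transcripts, over 8 libraries that share depth and scaling, and are given as a description.

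The mRNAs of the partners of eIF4A in eIF4F and of its regulators were counted in the same fit. In RIP Flag-eIF4A2 against RIP EV, 0 of 11 rose and 1 of 11 fell, beside 24.8% and 5.46% of all transcripts, with a median log2 fold change of 0.26 beside 0.64. This call, like the others of the lists against RIP EV, was lost with limma voom and with edgeR on the 4 libraries of the comparison. The one that fell was Eif4ebp2, a repressor that competes with eIF4G for eIF4E, with 206 and 177 CPM in RIP EV and 119 and 120 in RIP Flag-eIF4A2 (log2 fold change -0.96 ± 0.29, adjusted p = 0.0472 by edgeR). Eif4g3, a scaffold paralog, had the highest value, 4.81, with 0 and 9.87 CPM in RIP EV and 188 and 156 in RIP Flag-eIF4A2, and did not pass. Against input, 0 of 11 passed, from -1.26 for Eif4e to 2.11 for Eif4g1. Eif4g1, the main scaffold, had 329 and 184 CPM in input Flag-eIF4A2 and 971 and 1767 in its RIP. These ranges did not overlap, as for 64.4% of all transcripts. In RIP EV against input, 0 of 11 rose and 1 of 11 fell, beside 4.5% and 26.3% of all transcripts. This was Eif4g2, a scaffold that does not bind eIF4E, with 486 and 417 CPM in the input and 186 and 236 in RIP EV (log2 fold change -1.12 ± 0.30, adjusted p = 0.0309 by edgeR).

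In the partners of eIF4A3 in the exon junction complex and NMD, 1 of 12 rose and 3 of 12 fell against RIP EV, beside 24.8% and 5.46% of all transcripts, with a median of -0.33 beside 0.64. Magoh, whose product clamps eIF4A3 onto RNA, rose, with 122 and 140 CPM in RIP EV and 768 and 379 in RIP Flag-eIF4A2 (log2 fold change 1.84 ± 0.35, adjusted p = 0.00946 by edgeR). Upf3b, which bridges the junction complex to UPF2, fell, with 693 and 921 CPM in RIP EV and 100 and 151 in RIP Flag-eIF4A2 (-2.95 ± 0.51, adjusted p = 0.00725 by edgeR). Upf2 (-2.11) and Upf3a (-2.23) fell as well. Both input groups held Magoh at 1078 to 1309 CPM and Upf3b at 98.6 to 206 CPM. For Magoh both RIP groups lay below all 4 inputs, RIP EV further than RIP Flag-eIF4A2 (log2 fold change -1.38 ± 0.35 against its input, adjusted p = 0.291 by edgeR). For Upf3b, RIP EV lay above all 4 inputs and RIP Flag-eIF4A2 lay within their range. Of all transcripts, 59.5% had CPM ranges without overlap in RIP EV against input EV. The share was 64.4% in RIP Flag-eIF4A2 against its input. In RIP EV against input, 2 of 12 rose and 1 of 12 fell, beside 4.5% and 26.3% of all transcripts. Upf3b (2.40 ± 0.50, adjusted p = 0.0132 by edgeR) and Upf2 (2.46 ± 0.55, adjusted p = 0.0166 by edgeR) rose and Magoh fell by 3.18 on the log2 scale (SE 0.37, adjusted p = 0.00805 by edgeR). Against input in Flag-eIF4A2 cells, 0 of 12 passed.

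Of 11 subunits of CCR4-NOT, 1 rose and 2 fell against RIP EV, beside 24.8% and 5.46% of all transcripts, with a median of -0.43 beside 0.64. Cnot1, the scaffold subunit, rose, with 66.0 and 95.1 CPM in RIP EV and 278 and 249 in RIP Flag-eIF4A2 (log2 fold change 1.43 ± 0.37, adjusted p = 0.0266 by edgeR). The deadenylase subunits Cnot7 (-1.86 ± 0.35, adjusted p = 0.00902 by edgeR) and Cnot6 (-1.72 ± 0.43, adjusted p = 0.0238 by edgeR) fell. In RIP EV against input, 2 of 11 rose, Cnot7 (1.21) and Cnot8 (1.63), and 0 of 11 fell, beside 4.5% and 26.3% of all transcripts. Against input in Flag-eIF4A2 cells, 0 of 11 passed. Between the inputs, no gene of these 3 lists passed by edgeR. Over the 3 lists, of 11, 12 and 11 genes, the counts of genes past the threshold depended on how the spread was estimated. Against RIP EV there were 8, and 0 with edgeR on the 4 libraries of the comparison or limma voom with a weight per group. The count was 4 with the replicate number as a block. It rose without either RIP EV replicate and fell without RIP Flag-eIF4A2 replicate 1, as did the calls over all transcripts. In RIP EV against input there were 6, and again 0 with edgeR on the 4 libraries or limma voom, where no transcript at all passed. That count rose without either RIP EV replicate and fell without input EV replicate 2, as did the calls over all transcripts. In RIP against input of Flag-eIF4A2 cells there were 0, but 10 with edgeR on the 4 libraries, 11 with limma voom and 12 with DESeq2 on the 4 libraries. Over all transcripts these called 908, 957 and 997 higher and 910, 1038 and 1098 lower. The 0 of each list there therefore does not show that its genes were unaltered.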

How the data were processed

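RNA of inputs and anti-Flag immunoprecipitates was sequenced as QuantSeq 3′ FWD libraries. Per the labels and the submitters' processing notes, the authors aligned reads to mm10 (GRCm38) with STAR 2.5.3a and counted them per gene with HTSeq 0.11.2. The deposited values are raw read counts for 52550 genes, followed by 5 summary lines, which were left out of library sizes and tests. For the strand setting and the annotation release the methods and labels give nothing. Of the gene identifiers, 52403 matched GENCODE M21, which gave symbols, positions and transcript sequences.

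Transcripts with at least 1 CPM in all 4 inputs (10754) were tested with edgeR 4.0.16 (quasi-likelihood, TMM, R 4.3.3) on all 8 libraries, with Benjamini-Hochberg adjustment at 0.05. The steps were tested on simulated data in which all groups had the same spread. Unequal spread between groups was not simulated. Fits with DESeq2 1.42.0 and limma 3.58.1, other scalings and filters, a replicate block and each library left out were alternatives, and the limit of a mean CPM of 50 was chosen after seeing the data. Ratios were compared by exact permutation tests. Replicate numbers were not used as pairs. Levels are CPM over reads on genes, and at 2044853 to 11206420 such reads a count of 0 allows 0.268 to 1.47 CPM.

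The genes, the lists of partner genes and the tests were chosen with earlier results of these data known. Values are given for the 3 paralogs, for list genes past the threshold or at the ends of their list, for genes overlapping a paralog and copies named after one, and for the 3 transcripts with the highest r with each paralog. Eif4a2flag in the labels is written Flag-eIF4A2.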

Additional observations from a re-analysis of the deposited data

Results flagged for a closer look

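The RIP over input change differed between Flag-eIF4A2 and EV cells, by the interaction term of the edgeR fit, for 3 genes of the partner lists and for none of the paralogs, beside 19.2% of all transcripts with a higher and 2.1% with a lower difference. Magoh had a log2 difference of 1.80 (adjusted p = 0.0438 by edgeR), Cnot7 of -1.84 (adjusted p = 0.0398 by edgeR) and Upf3b of -2.98 (adjusted p = 0.0261 by edgeR). In each, RIP EV lay outside the range of the inputs. Of all transcripts, 59.5% had CPM ranges without overlap in RIP EV against input EV. With limma voom none of the 10754 transcripts passed this test (2144 had an unadjusted p under 0.05), and with the replicate block none of these 3 genes did. No transcript passed when input EV replicate 1, either input Flag-eIF4A2 replicate or either RIP Flag-eIF4A2 replicate was left out (2657 to 2792 had an unadjusted p under 0.05 by edgeR), and none of the list genes did without input EV replicate 2. Without either RIP EV replicate more list genes passed, as did more of all transcripts. The cause was not tested.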

How the results depend on the processing

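The 15 results of the paralogs (3 genes in 5 comparisons) were recomputed under alternative settings, which gave 279 values in all. None of the 15 had passed in the fit of all 8 libraries, so a held side of the threshold means that a result again did not pass. Direction and side of the threshold held in 259, 3 passed the threshold and 17 turned in sign. The 3 were Eif4a2 against RIP EV (-1.27) and in the difference of RIP over input changes (-1.39) without RIP EV replicate 1, and Eif4a1 against RIP EV (1.02) without RIP EV replicate 2. In each, RIP EV had 1 library left, assumed to vary like the other groups, and more of all transcripts were called too. Eif4a3 against RIP EV turned to 0.22 with no scaling factor, 0.01 with filterByExpr (0.0089) and 0.13 with no filter, and its difference of RIP over input changes to 0.13 with no scaling factor and 0.01 with no filter (0.0099). Eif4a1 in RIP EV against input turned to 0.028 with a mean CPM of at least 50. The cause was not tested.

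With 1 library left out, the log2 values of Eif4a1 ran from 0.044 to 1.078 against RIP EV, from -0.29 to 0.68 in RIP against input of Flag-eIF4A2 cells, from -0.60 to 0.085 in RIP EV against input, from -0.084 to 0.94 in the difference of these changes and from 0.04 to 0.22 between inputs. Those of Eif4a2 ran, in the same order, from -1.27 to -0.066, from -0.99 to -0.31, from -0.41 to 0.75, from -1.39 to -0.19 and from -0.18 to 0.48. Those of Eif4a3 ran from -0.24 to 0.30, from -0.77 to -0.01, from -0.64 to -0.05, from -0.50 to 0.26 and from -0.33 to 0.43.

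With 1 library left out, the log2 difference of the Eif4a2 to Eif4a1 ratio ran from -1.53 to -1.05 against RIP EV, from -1.12 to -0.56 against input and from -0.28 to 0.29 between inputs. That of Eif4a3 to Eif4a1 ran from -1.19 to 0.082 against RIP EV, from -0.72 to 0.55 in RIP EV against input and from -0.37 to 0.21 between inputs. That of Eif4a2 to Eif4a3 ran from -1.61 to 0.14 against RIP EV, from -0.84 to 0.30 in RIP against input of Flag-eIF4A2 cells, from -0.33 to 1.42 in RIP EV against input and from -0.49 to 0.65 between inputs.

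Deviations of same-numbered libraries correlated only weakly between groups, from -0.07 to 0.13. This cannot show that the libraries were unpaired. With the replicate block, Eif4a1, Eif4a2 and Eif4a3 had 0.56, -0.78 and -0.07 against RIP EV, and no paralog call changed, while 2438 transcripts were higher and 426 lower. Calls over all transcripts against RIP EV, 3251 in all, became 1329 with DESeq2 on the 4 libraries, 0 with edgeR on them (3149 with an unadjusted p under 0.05), 9 with limma voom, 4945 with no filter and 592 with a mean CPM of at least 50, and ran from 2130 to 7989 with 1 library left out (6422 and 7989 without RIP EV replicates 1 and 2). The limits are 2 libraries a group, the low depth of RIP EV, and counts per gene that do not separate the transgene from the locus.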
